A study of Mus musculus with 66 samples.

Results

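The genes described here are those on 1 membrane array whose symbols mark DNA repair and genome maintenance, measured in the cerebellum of C57BL/6 mice. They were taken by name from probes with a single gene symbol: symbols that begin with Xrcc, Ercc, Fanc, Parp, Terf or Brca, symbols made of Rad, Msh, Mlh, Rpa or Lig and a digit, the polymerase genes (Pol, but no Polr), and Aplf, Atm, Atr and a few further repair genes. The rule found 28 genes on 30 probes, of 4209 genes on 4875 probes with a single symbol, and it used no measured value. Of the repair genes that the rule listed singly, Trp53, Pcna, Fen1, Blm and Prkdc were not analysed here. Rad54l2 entered by its first letters alone, since it encodes an ATPase related to RAD54 that is known as a partner of the androgen receptor rather than as a repair enzyme.

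Cells carry separate routes for separate lesions. Small altered bases and single-strand breaks are cut out and resealed in base excision repair, bulky adducts are removed by nucleotide excision repair, replication errors by mismatch repair, and double-strand breaks are rejoined end to end or copied from a sister chromatid. Post-mitotic neurons have no sister chromatid after division has ended, and inherited defects of strand-break repair, such as loss of ATM in ataxia telangiectasia, are known for damage to the cerebellum. Replication factors belong to dividing cells, and in the mouse the granule cell precursors of the cerebellum stop dividing during the third postnatal week.

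Each of 66 mice gave 1 array. Ad libitum mice were 17-21 days old (2 males, 3 females), 33-44 days old (3 males, 2 females), about 6 months old (5 males, 5 females), about 16 months old (5 males, 5 females) or about 24 months old (4 males, 5 females). Restricted mice were about 6 months (4 males, 5 females), 16 months (5 males, 5 females) or 24 months old (3 males, 5 females), and their regular feed was stepped down after week 13 to 60% of fortified feed, while ad libitum mice had 100% regular feed throughout. No mouse carried a genetic alteration that the labels name, and the restricted males of the oldest cohort were all 673 days old, against 719 to 743 days for the ad libitum males. The tissue is whole cerebellum, so fewer cells of a type and less RNA per cell cannot be told apart. Of its neurons, the Purkinje markers Calb1 and Car8 were measured (mean Z scores -0.015 and 0.841), and none of the listed granule neuron markers was.

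Values are Z scores: each spot is placed within the distribution of its own array, in units of the SD over that array, so they hold no fold change and a spot of one gene cannot be read as more abundant than that of another. Array profiles correlated with one another at a median of 0.964. Those of the second male and the second female of the restricted 16 month cohort (0.695 and 0.701) and of the second restricted female of 24 months (0.820) stood apart and were left out of the fit, which held 63 arrays. On the first pair the probes at 1 of 22 positions of the numbering averaged -2.70 and -2.69, and a probe of Rad50 lies at that position. The lowest correlation among the arrays kept, 0.921, was that of the first male of 17-21 days. Mice were numbered within a group in the order of deposit.

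Promoter letters are given because several members are replication genes, a class known in mammals for control by E2F factors. The sequences are from RefSeq (GRCm38.p6), which had windows of 250 bases before to 50 after the annotated start for 22 of the 28 genes. The letters searched were TTTGGCG or TTTCCCG, and also TTTCGCG or TTTGCCG, on both strands. At least 1 of them stood in the windows of 8 members (36.4%): Aplf, Fancg, Lig1, Msh6, Pole2, Pole4, Rpa3 and Xrcc6. They stood in 14.2% of the 3435 single-symbol genes of the membrane that had a window, and in 6.70% of all 32851 windows. A match is a string of letters and no binding site. The stretches of the members on which the results below turn are shown, read along the gene's strand, with the matched letters in capitals. Lig1, on the plus strand of chromosome 7, has both of its matches in 1 of its 3 windows, at chr7:13278830-13278859 and chr7:13278842-13278871. Pole4 is at chr6:82652889-82652918, Aplf at chr6:87672127-87672156, Rpa3 at chr6:8259169-8259198 and Fancg at chr4:43010335-43010364, all on the minus strand. Distances are from the annotated start of the window, which need not be the outermost start of the gene. The stretches of Pole4 and Fancg, though before that start, lie inside the annotated span of the gene.
Lig1, 15 bases past the start: ccgccccctccCGCCAAAgtgcgcgcgaaa
Lig1, 27 bases past the start: gccaaagtgcgCGCGAAAtctgtgtggcgc
Pole4, 33 bases before the start: tctacccggcgCGGGAAAggggccgaaatc
Fancg, 52 bases before the start: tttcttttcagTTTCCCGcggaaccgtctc
Aplf, 16 bases past the start: ttaagctgtagTTTGGCGgtctgttgacag
Rpa3, 46 bases before the start: tgattggtgttCGGGAAAtctgcccgggtt

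Members lay across most of the range of spot signal, with 0 among the 143 features of a mean Z score above 2. The mean Z score over the 63 arrays was above 0 for 17 members (60.7%, against 48.7% of all features) and below 0 for 11. The brightest spots relative to their own arrays were those of Terf1, a telomere-binding protein gene (mean Z score 1.65), the mismatch repair gene Mlh3 (1.53), the Fanconi anaemia gene Fanca (1.21), Rpa2 of the single-strand binding complex (1.2), Pole4, a small subunit of DNA polymerase epsilon (0.963), Xrcc6, which encodes the Ku70 subunit of the end-joining machinery (0.818), Pole2 (0.618) and Rad54l2 (0.548). The dimmest were Brca1 of homologous recombination (-3.32), the nucleotide excision helicase gene Ercc3 (-2.36) and Atm, the kinase that answers double-strand breaks (-1.57).

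**Figure D1:**
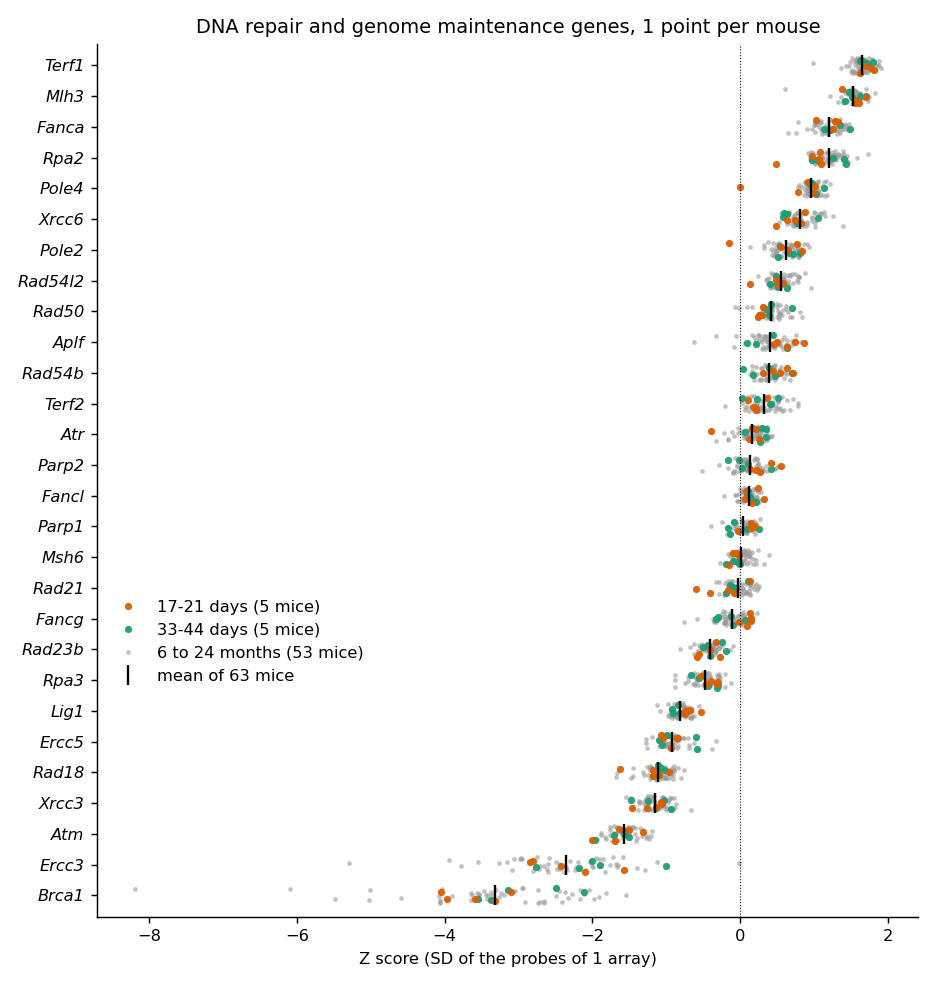
Z score (x axis, SD of the probes of 1 array) of each of the 28 genes (y axis, ordered by mean) in the 63 mice of the fit. Points are mice, coloured by age, and the black ticks are means; Terf1 lies highest at 1.65 and Brca1 lowest at -3.32, and the Brca1 and Ercc3 points are the most scattered.

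How far mice of a group differed from each other set what could be seen. The SD between mice within a group ran from 0.106 for Fancl, a ubiquitin ligase of the Fanconi pathway, to 0.252 for Aplf, a factor of end joining, in 26 of the 28 members. It was 0.778 for Ercc3 and 1.16 for Brca1, whose values reached -5.30 and -8.20 in single mice. The median over members was 0.170, against 0.167 over all 7782 features. Dim spots scattered more on the whole membrane: the median SD was 0.816 for the 21 features with a mean Z score of -3 or lower, 0.441 for the 155 between -3 and -2, and 0.160 for the 2496 between 0 and 1. Brca1 had the largest SD of its 21 features.

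**Figure D2:**
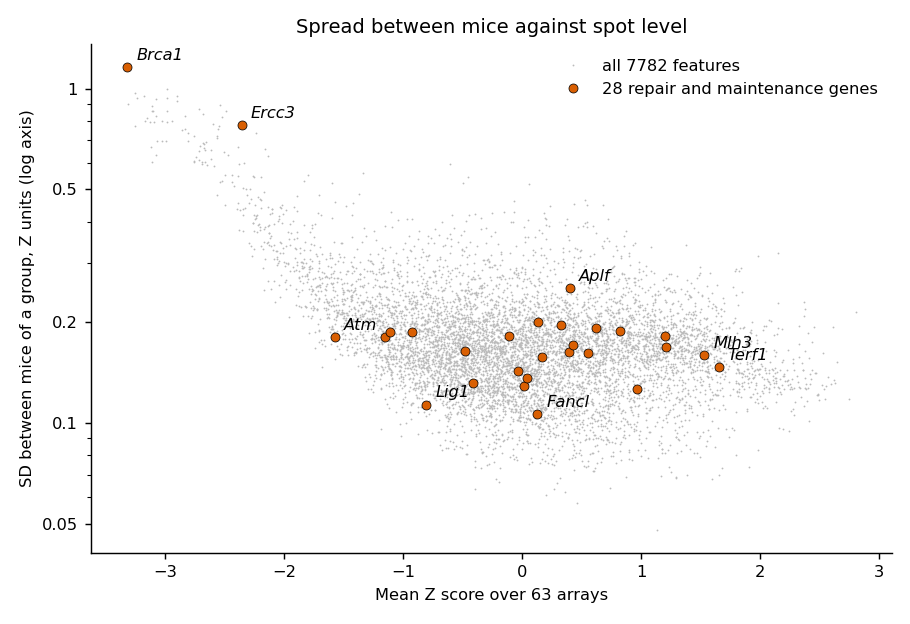
SD between mice of a group in Z units (y axis, log scale) against the mean Z score over 63 arrays (x axis) for 7782 features (grey) and the 28 genes (orange). The 2 genes below a mean of -2, Ercc3 at an SD of 0.778 and Brca1 at 1.16, lie in the dim tail where grey points rise too.

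The first question was whether repair genes change while the cerebellum matures. No member passed an adjusted p of 0.05 in limma between 33-44 days and 17-21 days, where 24 of all features did (0.308%). At an unadjusted p under 0.05 there were 7 of 28 members, against 13.4% of all features. Of these 4 were higher at 33-44 days and 3 lower, against 6.82% and 6.53% of all features. The 7 were Pole4, Rpa2, Atr and Rad21 (higher), and Fancg, Lig1 and Parp2 (lower). The median difference over members was 0.0400, and over all features -0.00896.

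The replication genes had differences of both signs, none past the adjusted threshold. Pole4 had Z scores of 0.97, 0.94 and 1.03 in the males and 1.14 and 0.99 in the females at 33-44 days, against 0 and 0.92 in the males and 1.00, 1.01 and 0.78 in the females at 17-21 days. The first male of 17-21 days was by far the lowest. The second male (0.92) and the female at 0.78 also lay below every mouse of 33-44 days. The females at 1.00 and 1.01 lay among the older mice. With sexes weighted equally the difference was 0.33 ± 0.0837 Z units (SE), with an adjusted p of 0.0644 in limma. Without the first male it was 0.0975, with an adjusted p of 0.780.

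Rpa2 had 1.04, 0.97 and 1.41 in the males and 1.44 and 1.26 in the females at 33-44 days, against 0.48 and 1.09 in the males and 1.07, 0.98 and 1.08 in the females at 17-21 days. Here the first male alone was low, and the other mice of its cohort overlapped with the older ones. The difference was 0.33 ± 0.116 (adjusted p = 0.211), and 0.178 without that mouse.

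Lig1, the ligase that seals Okazaki fragments, depended less on that mouse. Its Z scores were -0.78, -0.81 and -0.84 in the males and -0.92 and -0.91 in the females at 33-44 days, against -0.53 and -0.71 in the males and -0.68, -0.75 and -0.75 in the females at 17-21 days. Every mouse of 33-44 days lay below every mouse of 17-21 days. The difference was -0.19 ± 0.0765 (adjusted p = 0.283), and -0.144 without the first male of 17-21 days. In the adult cohorts the mean of Lig1 stayed between -0.851 and -0.789, on the side of the 33-44 day mice. Cohorts that do not overlap were found for 2 members, Lig1 and Rad50, against 0.424% of all features.

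Rad50, a subunit of the complex that holds broken ends together, showed 0.355 to 0.70 at 33-44 days and 0.245 to 0.315 at 17-21 days. It is the mean of 2 probes that disagree. The dim one differed by 0.385 between these cohorts and the bright one by 0.0167, with adjusted p values of 0.403 and 0.918 when probes were tested singly.

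Among the other members Fancg, of the Fanconi core complex, differed by -0.29 ± 0.116 (adjusted p = 0.270), with mice at -0.33 to 0.06 against -0.02 to 0.15 at 17-21 days. Its difference was -0.288 without the first male (adjusted p = 0.780). Parp2, a sensor of strand breaks, differed by -0.269 and its relative Parp1 by -0.143. Atr, the kinase of stalled forks, differed by 0.240 and Rad21, a ring subunit of cohesin, by 0.196. Without the first male Atr differed by 0.10.

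Between 6 months and 17-21 days again no member passed, of 32 features called in all (0.411%), and 5 members had an unadjusted p under 0.05 (10.7% of all features). Pole4 differed by 0.28 ± 0.0720 Z units (adjusted p = 0.0571), and by 0.05 without the first male. Rad21 differed by 0.29 ± 0.0804 (adjusted p = 0.111), with a range of -0.22 to 0.23 at 6 months against -0.60, -0.41, -0.16, -0.08 and 0.13 at 17-21 days. Both males of 17-21 days were low, and without the first the difference was 0.238. Rpa2 differed by 0.25 ± 0.0998 (adjusted p = 0.382), Lig1 by -0.153 and Fancg by -0.230.

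Without the first male of 17-21 days, limma called 1 feature and 0 members in each of these comparisons, and at the unadjusted level 1 member in each, where 6.00% and 4.14% of all features were at that level. With that male as the only one of its group, the second left out, the calls numbered 628 and 572 features (8.07% and 7.35%), with 4 members in each comparison. The lone male is there assumed to vary like mice of other groups. These were Atr, Pole2, Pole4 and Rpa2 at 33-44 days, and Pole2, Pole4, Rad21 and Rpa2 at 6 months. The 2 runs differ only in which male of 17-21 days they hold.

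**Figure D3:**
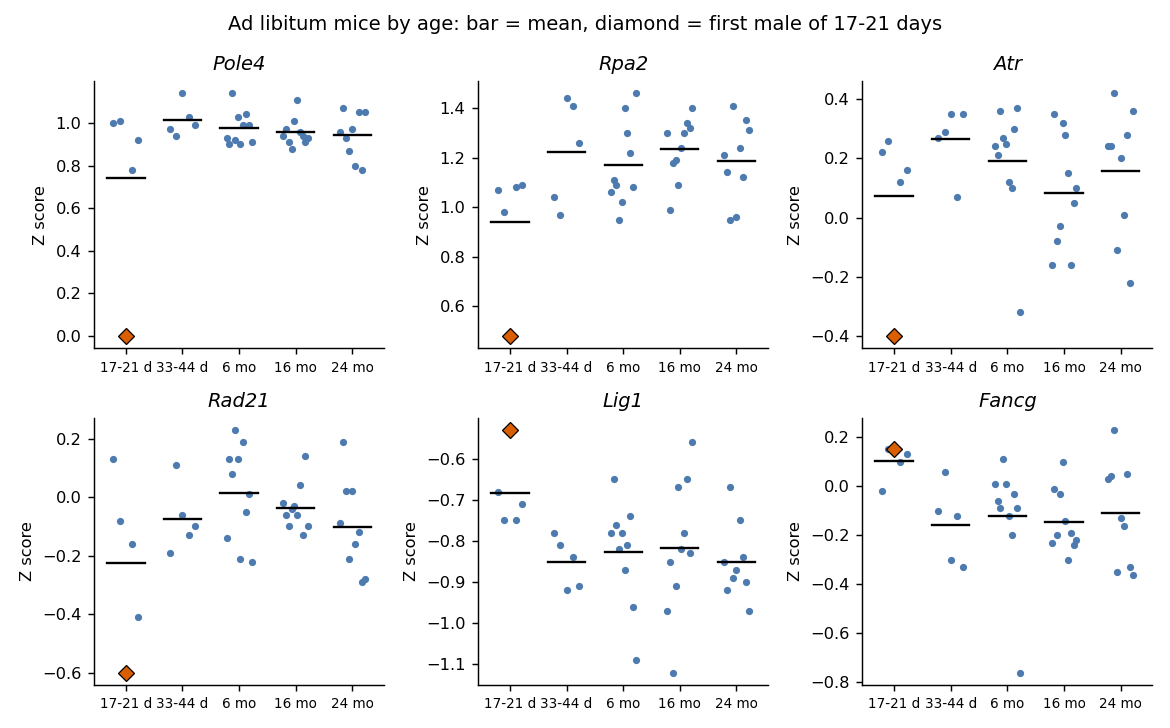
Z score (y axis) of 6 genes by age (x axis) in ad libitum mice, 1 point per mouse, with cohort means as bars; the orange diamond is the first male of 17-21 days. In Pole4, Rpa2, Atr and Rad21 that mouse lies below all others of its cohort, at 0, 0.48, -0.40 and -0.60, while the 17-21 day mice of Lig1 lie above all mice of 33-44 days.

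Mice of the same sex and array set, a run of array numbers in the labels, gave 5 pairs of a 6 month and a 17-21 day mouse. Fancg was lower at 6 months in 5 of 5 such pairs (mean difference -0.154) and Lig1 in 4 of 5 (-0.102). Pole4 was higher at 6 months in 3 of 5 (0.206, with 1 pair at 1.03) and Rad21 in 3 of 5 with 1 lower (0.318). With the array set in the model Rad21 passed (difference 0.308, adjusted p = 0.0327), and Pole4 had an adjusted p of 0.0840. No array set held both a 33-44 day and a 17-21 day mouse of the same sex. Pair counts, here and below, recount values already in the fit for members picked from them. Their share over all features was not counted.

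The members with the E2F-type letters did not go one way between 33-44 days and 17-21 days. Pole4 (0.328), Pole2 (0.140), Msh6 (0.0133) and Xrcc6 (0.0108) had positive differences, and Fancg (-0.293), Aplf (-0.266), Lig1 (-0.189) and Rpa3 (-0.0675) negative ones. None passed the adjusted threshold. Without the first male of 17-21 days Pole2 differed by -0.107. The signs of Msh6, Xrcc6 and Rpa3 turned with the position correction. Of the listed markers of cycling precursors, 8 of 19 were measured, among them Mcm2, Top2a and Ccna2, and 0 passed in either comparison with the third week. Their summed Z score was -0.685 to 0.375 at 33-44 days and -0.0200 to 0.570 at 17-21 days, so the cohorts overlapped in this list as well, and its part in the values of Lig1 was not tested. From 33-44 days to 6 months, 0 members were called (0%) and Atm alone had an unadjusted p under 0.05 (1.72% of all features), with a difference of 0.21 ± 0.0992.

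A main question of the study was adult ageing. Between 24 and 6 months in ad libitum mice, limma called no member (0% of all features), and 0 members were past the unadjusted level (2.49% of all features were). Differences of the 26 members other than Brca1 and Ercc3 ran from -0.140 to 0.0912 Z units, and 9 of all 28 members were above 0 at 24 months less 6 months, against 49.8% of all features. This count followed the scaling, since it was 15 (58.4% of all features) with the correction for probe position and 12 (50.5%) with quantile normalization. The 95% intervals of the 26 reached no further than -0.305 and 0.297, so shifts beyond these limits were not seen at this number of mice. Every interval held 0. Their half-widths ran from 0.104 to 0.226 Z units, so the smallest shift that could be told from 0 differed by gene. The median difference was -0.0185 (0.006 with the position correction), and over all features -0.000375.

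The smallest p values belonged to a cohesin, a damage recognition and a checkpoint gene. Rad21 ranged from -0.29 through a median of -0.12 to 0.19 at 24 months, against -0.22, 0.045 and 0.23 at 6 months, a difference of -0.13 ± 0.0667. Rad23b, partner of the XPC lesion sensor, ranged from -0.68 through -0.45 to -0.33, against -0.46, -0.42 and -0.09, a difference of -0.11 ± 0.0618. Atm ranged from -1.88 through -1.55 to -1.28, against -1.67, -1.54 and -1.24, a difference of -0.14 ± 0.0824. The cohorts overlapped in each, and the adjusted p was 1.00 for all 3 in limma.

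The kinase and cohesin genes Atm, Atr and Rad21 all had negative differences, as had 6 of the 7 recombination and Fanconi genes, none past the test, though those of Xrcc3, Fanca and Fancl turned positive with the position correction. Of the telomere genes, Terf1 averaged 1.71 ± 0.115 in the 9 old mice and 1.67 ± 0.137 in the 10 young adults (SD), and Terf2 averaged 0.307 ± 0.225 and 0.318 ± 0.280 in the same mice. Parp1, the main poly(ADP-ribose) polymerase, averaged 0.00222 ± 0.122 at 24 months and 0.00400 ± 0.192 at 6 months. Brca1 averaged -3.16 ± 1.25 and -2.93 ± 0.825 (SD). The 95% interval of its difference had a half-width of 1.02 Z units, too wide to read.

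**Figure D4:**
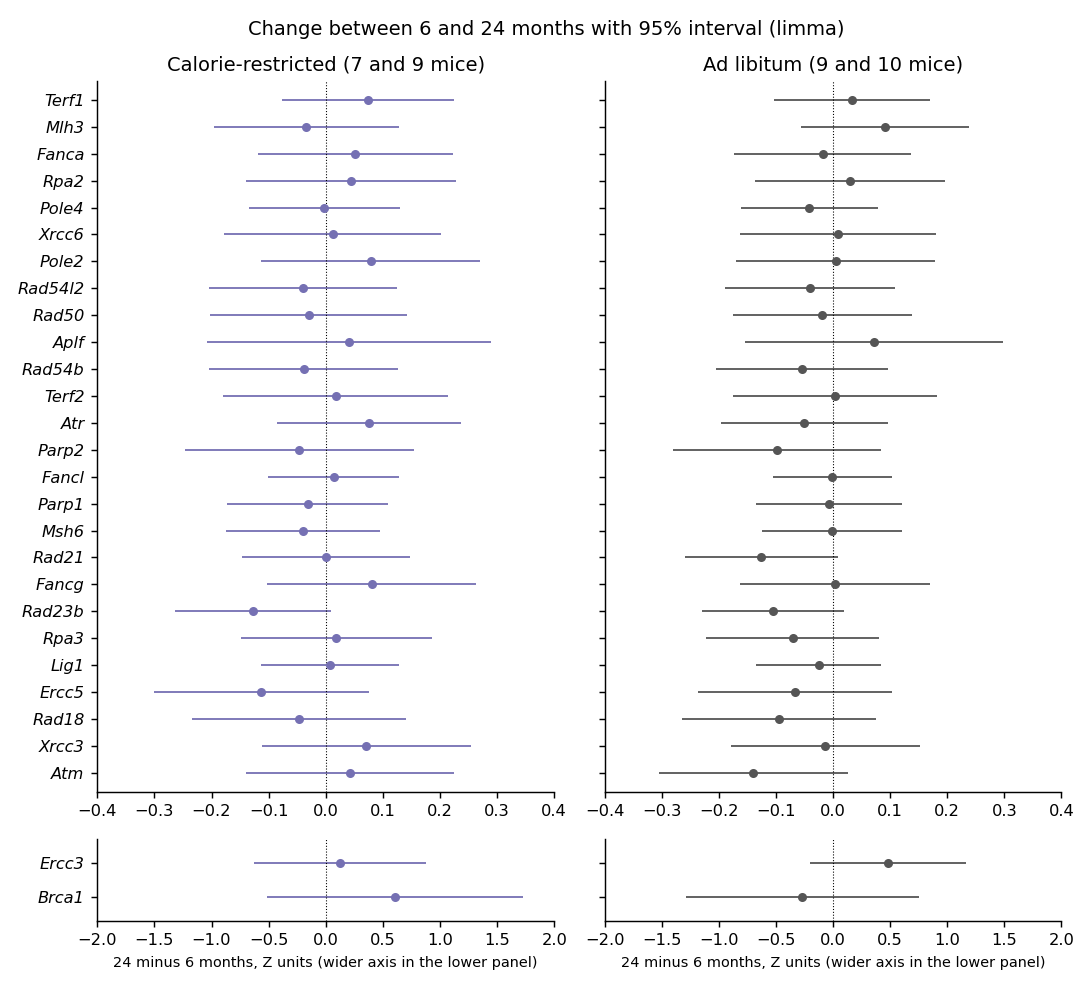
Difference in Z score between 24 and 6 months (x axis) for each of the 28 genes (y axis) in restricted mice (left) and ad libitum mice (right), with 95% intervals from limma; the lower panels, with Brca1 and Ercc3, have a wider axis. All 56 intervals include 0.

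Between 16 and 6 months in ad libitum mice no member passed. Xrcc3, a gene of homologous recombination, ranged from -1.38 through -1.27 to -1.17 in 16 month mice, against -1.54, -1.06 and -0.67 at 6 months. The 16 month mice were packed inside the spread of the younger ones (SD 0.0717, against 0.266). The difference was -0.19 ± 0.0799, with an unadjusted p of 0.0231 and an adjusted p of 1.00, and it was the only member at an unadjusted p under 0.05 (1.34% of all features, and 0% called). It was lower at 16 months in 8 of 10 pairs of the same sex and array set. Aplf differed by -0.188 and Atr by -0.108.

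Between 24 and 16 months no member passed, and Xrcc3 and Aplf were the 2 members at an unadjusted p under 0.05 (3.92% of all features, and 0% called), both with positive differences. Aplf ranged from 0.30 through a median of 0.44 to 0.82 at 24 months, against -0.62, 0.285 and 0.63 at 16 months, and the fifth female of 16 months alone was below 0. The difference was 0.26 ± 0.113 (adjusted p = 1.00), higher in 8 of 9 pairs of the same sex and array set. Without that female it was 0.163. Xrcc3 differed by 0.17 ± 0.0824, again in 8 of 9 pairs, and Rad23b by -0.10.

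By the criteria of the study, which ask for a Z-ratio (the difference over the SD of all differences) of 1.5 in either direction, a mean Z score of the pair above 0 and an unadjusted p under 0.05, Aplf was the 1 member that passed between 24 and 16 months, with a Z-ratio of 2.90 (0.771% of all features passed). It was no longer past them without the first male of 16 months, the first male of 24 months, the second female of 24 months or the fifth female of 16 months. Without the first female of 24 months 2 members passed. Xrcc3 had a Z-ratio of 1.94 but a spot below the mean. The same criteria took 3 members between 33-44 and 17-21 days (4.10% of all features) and 2 between 6 months and 17-21 days (4.07%), and 0 of either without the first male of 17-21 days.

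Between 24 and 6 months in restricted mice no member passed in limma or had an unadjusted p under 0.05 (0% and 1.12% of all features). Differences of the 26 less scattered members ran from -0.128 to 0.0803 Z units. Rad23b had the smallest p, with -0.82 through -0.50 to -0.29 at 24 months, against -0.54, -0.36 and -0.27 at 6 months, a difference of -0.13 ± 0.0681. Its difference was negative in both diets, in 6 of 7 pairs of the same sex and array set in restricted mice and in 6 of 9 in ad libitum mice, with 2 higher. Ercc5, an endonuclease of nucleotide excision repair, differed by -0.113 and Brca1 by 0.603. The difference between the diets in this change was tested as an interaction, which called 0 members (0%, with 70 features and 0 members at the unadjusted level). Its smallest p values were those of Atm, Rad21 and Atr. Their change was more positive in restricted mice, by 0.182, 0.127 and 0.126 Z units.

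The diets were then compared at each age. At 6 months 0 members were called (0%), and Brca1 alone had an unadjusted p under 0.05 (0.655% of all features), at -1.1 ± 0.507 in restricted against ad libitum mice. Restricted mice ranged from -8.20 through -3.64 to -2.05 and ad libitum mice from -4.07 through -2.86 to -1.81. The first restricted female held the value of -8.20, and without it the difference was -0.590. At 16 months no member had an unadjusted p under 0.05 (2.13% of features, 0% called). Atr, Pole4 and Xrcc3 had the smallest p values, and were higher in restricted mice by 0.137, 0.110 and 0.127 Z units.

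With the 3 arrays of low correlation included, 4 members had an unadjusted p under 0.05 at 16 months and none passed, while the share of all features at that level was 8.64%, against 2.13% without these arrays. These were Mlh3 (-0.247), Rad50 (-0.427), Rpa3 (0.164) and Xrcc3 (0.201). The 2 added mice had 0.61 and 0.72 for Mlh3, where the ad libitum mice of that age ranged from 1.22 to 1.75, and -1.58 and -1.64 for Rad50. The fifth restricted female of 16 months, whose array the fit held, also had 0.61 for Mlh3.

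At 24 months the smallest p values were those of Rad21, Mlh3 and Rpa3, none under 0.05 unadjusted (2.25% of features, 0% called). Rad21 differed by 0.14 ± 0.0736, with -0.21 through 0.08 to 0.24 in restricted mice against -0.29, -0.12 and 0.19 in ad libitum mice. Mlh3 differed by -0.15 ± 0.0809, and it was lower in 6 of 6 restricted mice paired by sex and array set, with a range of 1.32 to 1.54 in restricted mice against 1.52 to 1.73 in ad libitum mice. Rpa3, the smallest subunit of the single-strand binding complex, differed by 0.136. The age gap between restricted and ad libitum males cannot be told apart from diet in these values.

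Among females of 24 months, whose ages did not differ in this way, 2 members had an unadjusted p under 0.05 and 0 passed (5.37% and 0% of features). Rad18, the ligase that starts translesion synthesis, was at -1.26 ± 0.281 (SD, n = 4) in restricted and -0.991 ± 0.169 (SD, n = 5) in ad libitum females, a difference of -0.27 ± 0.123 (SE). It was -0.131 without the fourth restricted female, at -1.68. The 2 probes of Rad18 differed in this. In the brighter one the restricted females of the fit (-0.88 to -0.80) lay below the ad libitum females (-0.72 to -0.55). In the dimmer one the fourth restricted female was at -2.56. The rest (-1.43 to -1.30) lay within the ad libitum range of -1.73 to -1.04. The share of all probes with such a gap was not counted. Xrcc6 was at 0.965 ± 0.0954 and 0.710 ± 0.126, a difference of 0.26 ± 0.125, and every restricted female of the fit was above every ad libitum female (0.87 to 1.07, against 0.53 to 0.85), as in 2.22% of all features. Terf2, which caps telomere ends, differed by 0.249. With the 3 arrays of low correlation included, among them the second restricted female of this group, 6 members had an unadjusted p under 0.05. So had 1939 of 7782 features, against 418 without these arrays, and 0 passed.

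Pooled over the adult ages, no member passed between restricted and ad libitum mice. Rpa3 differed by 0.10 ± 0.0456 (unadjusted p = 0.0343, adjusted p = 1.00 in limma), the only member at that level (1.64% of features, 0% called), and Mlh3 by -0.088 ± 0.0442. By age Rpa3 averaged -0.437 ± 0.134 in restricted and -0.479 ± 0.263 in ad libitum mice at 6 months, -0.451 ± 0.104 and -0.565 ± 0.0652 at 16 months, and -0.430 ± 0.172 and -0.542 ± 0.192 at 24 months (SD). Restricted mice were the higher of the pair in 6 of 9, 7 of 8 and 4 of 6 pairs of the same sex and array set. The ranges overlapped at every age.

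**Figure D5:**
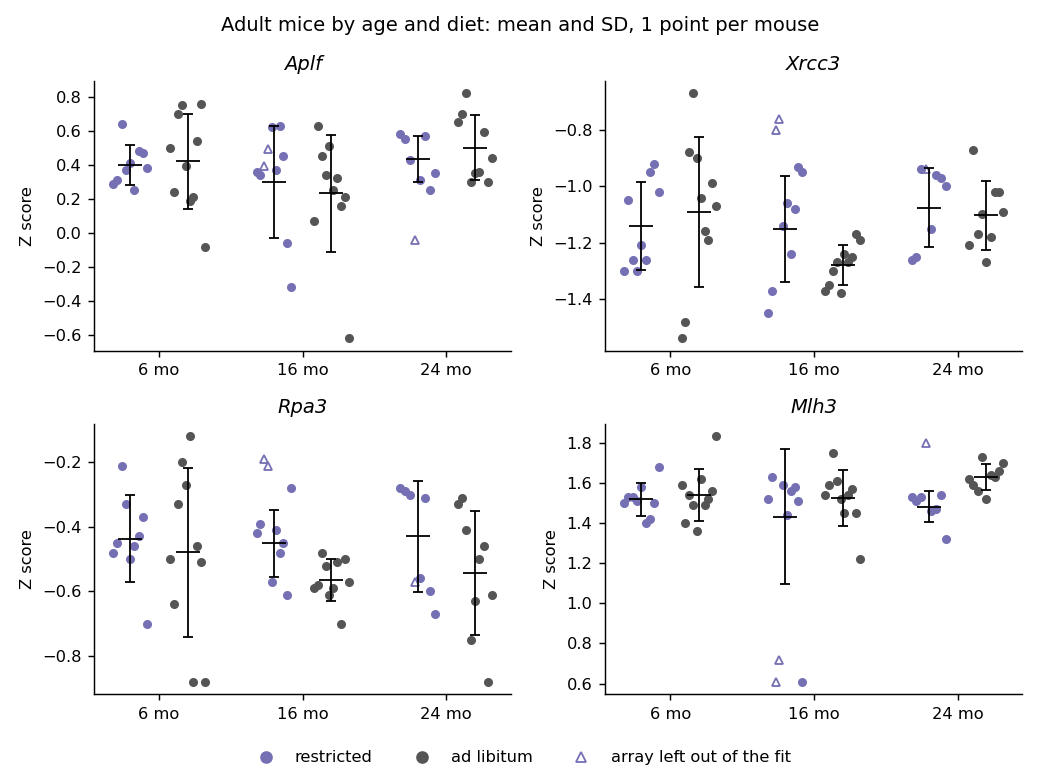
Z score (y axis) of Aplf, Xrcc3, Rpa3 and Mlh3 by age (x axis) in restricted (purple, left) and ad libitum mice (grey, right), 1 point per mouse with mean and SD; open triangles are the 3 arrays left out of the fit. The lowest cohort means of Aplf (0.232) and Xrcc3 (-1.28) are those of ad libitum mice of 16 months, with neither gene called in limma. In Aplf 1 of these mice lies at -0.62. Restricted mice of 16 months average 0.299 in Aplf and -1.15 in Xrcc3, and the groups overlap in every panel.

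Sex made no difference that passed: limma called 0 members between adult females and males (0% of features) and found 0 at the unadjusted level (1.29%). The smallest p values were those of Aplf, Mlh3 and Ercc3, all lower in females, with differences of -0.10, -0.0621 and -0.281 Z units. The 26 less scattered members had 95% intervals within -0.236 and 0.181.

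Covariation from mouse to mouse was no more common among members than on the whole membrane. After group means were removed, Pearson correlations over the 63 arrays had a value of 0.6 or more in either direction in 23 of 378 pairs of members (6.08%, against 7.89% of all pairs of features). As a description of single pairs, Parp2 with Rad54b (0.775), Parp1 with Fancg (0.739) and Pole2 with Fanca (0.727) were the most alike, and Aplf with Terf2 (-0.764) and Rad54b with Rpa2 (-0.724) the most opposed. With array-set means removed as well the 5 values were 0.698, 0.536, 0.712, -0.649 and -0.690. Terf2, Rpa2 and Xrcc6, and opposite to them Fancg, Aplf and Parp1, were picked from these values. Their 15 pairs had correlations of 0.509 to 0.764 in size, and all 15 were weaker with array-set means removed (0.2 to 0.649, the weakest being Parp1 with Rpa2). The fifth ad libitum female of 6 months had 1.39 for Xrcc6, 1.46 for Rpa2 and 0.79 for Terf2, each the highest of its 10 mice, and -0.76 for Fancg and -0.40 for Parp1, each the lowest. The arrays share RNA, filter and scaling within a mouse, and the part of each was not tested.

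Gene names rest on the annotation of the filter. The 2 probes of Rad50 had means of 1.82 ± 0.0875 and -0.976 ± 0.324 (SD, n = 63) and correlated by -0.0695 over mice, and those of Rad18 had means of -0.745 and -1.47 and correlated by 0.119. Over the 485 genes with 2 probes the median distance of the means was 0.738 and the median correlation 0.0488, so the distance of 2.80 for Rad50 was greater than in 98.4% of them.

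Repair genes outside the naming rule gave no calls either. Of 80 listed, 27 were measured and 0 passed in any of the 14 comparisons. Between 33-44 and 17-21 days 4 had an unadjusted p under 0.05, of 27 measured, where 13.4% of all features were at that level. Rfc1, of the clamp loader, differed by 0.222 and the tankyrase gene Tnks2 by 0.185, while the alkylation repair gene Alkbh2 differed by -0.199 and Ptges3, whose product p23 assists telomerase, by -0.202. At the same level 0 did so between 24 and 6 months in either diet. Gtf2h1 of TFIIH (0.127), Topbp1, an activator of ATR (0.170), and Mad2l2, a subunit of polymerase zeta (-0.259), had an unadjusted p under 0.05 between restricted and ad libitum mice of 24 months (2.25% of all features), each with an adjusted p of 1.00 in limma.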

How the data were processed

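Total RNA of each cerebellum was labelled with radioactive dCTP by reverse transcription and hybridized to a nylon filter of mouse cDNA clones. The deposited scores are Z scores that the authors computed per array from phosphor images quantified with ArrayPro. Each array has a mean of 0 and an SD of 1, with values given to 2 decimals. The sources used here do not say whether logarithms came first. No signal over background is given, so it cannot be told whether dim spots, such as that of Brca1, were detected. The number of arrays limits the precision. Since every array is centred, a shift shared by the whole filter leaves no trace. Of 8448 probes, 4875 had 1 symbol in the platform annotation, 224 several and 3349 none. Probes of a gene were averaged, which left 7782 features, with no filter on signal. All 28 members matched RefSeq by gene identifier.

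Groups of sex, age and diet (16) came from the labels, and each array was a different mouse. One mean per group was fitted with limma 3.58.1 in R 4.3.3 to the 63 arrays whose median correlation with the others was 0.9 or more (47 residual degrees of freedom). The 14 comparisons were two-sided, sexes weighted equally, with Benjamini-Hochberg adjustment over all features at 0.05. Because of this weighting a difference need not equal that of the plain cohort means. Tables were handled in Python 3.11.15, and the fit was tested on simulated data. Named were the 8 members with the highest and the 3 with the lowest mean Z score, and a short list of central repair genes. Up to 3 members with the smallest p were named in each comparison where none was called. So were members whose probes differ by over 1 Z unit. Lig1 and Fancg were followed through further comparisons, and Parp2, Rad54b, Fancl and the listed genes outside the rule were named, with their values in view. The members and lists were chosen with earlier results of these data known. Alternatives were all arrays, a mean Z score above 0, the array set as a block, quantile normalization, a correction for probe position, single probes, robust variances, each mouse left out, and a Z-ratio of 1.0. The analysis of variance of the study was not repeated.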

Additional observations from a re-analysis of the deposited data

Results flagged for a closer look

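Single mice that stood apart from their cohort were looked for in 224 combinations of a member and a cohort of age and diet, by Dixon's test. It marked 24, where chance marks about 1 in 20. The first male of 17-21 days had 6 of them, all low: Atr at -0.40, Fanca at 1.03, Pole2 at -0.15, Pole4 at 0, Rad54l2 at 0.14 and Rpa2 at 0.48. The fifth ad libitum female of 6 months had 4, with Atr at -0.32 and Fancg at -0.76 below its cohort and Rad23b at -0.09 and Xrcc6 at 1.39 above it. The fifth restricted female of 16 months had Ercc5 at -0.33, above the others, and Mlh3 at 0.61, below them, and the fifth restricted male of 16 months was low in Rad23b (-0.58) and Terf1 (0.99). Brca1 was low in the first restricted female of 6 months (-8.20) and in the third ad libitum male of 24 months (-6.10).

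Rad50 was marked in 3 cohorts, at 0.70 in the first female of 33-44 days, at -0.07 in the first ad libitum male of 6 months and at 0.845 in the fourth ad libitum female of 16 months. The remaining values were Aplf at -0.62 in the fifth ad libitum female of 16 months, Atr at 0.07 in the third male of 33-44 days, Parp1 at -0.03 in the first female of 17-21 days, Mlh3 at 1.32 in the fifth restricted female of 24 months and Rad18 at -1.68 in the fourth restricted female of 24 months. The fifth mice named above and the third male of 33-44 days were all of array set 5. There the median correlation was 0.927 for the fifth ad libitum female of 6 months. It was 0.922 and 0.932 for the fifth restricted female and male of 16 months, and 0.931 for the fifth ad libitum female of that age. The highest of the set was 0.9715, in the fifth ad libitum male of 6 months. The part of the array set in these values was not tested.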

How the results depend on the processing

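Counts of 0 members called held under every alternative in 12 of the 14 comparisons. Between 33-44 and 17-21 days 1 member was called with a mean Z score above 0 (Pole4) and 2 with the position correction (Atr and Pole4), and leaving out single mice gave 0 to 4. Over all features the calls were 24 as reported, 46 of 3791, 66, and 0 to 628. Between 6 months and 17-21 days 1 was called with a mean Z score above 0 (Pole4), 1 with the position correction and 1 with array set as a block (Rad21 in both), and 0 to 4 on leaving out single mice. The calls over all features were 32 as reported, 50 of 3791, 40, 45, and 0 to 572. The upper ends came without the second male of 17-21 days. Without the second male of 33-44 days 1 was called in the first comparison, and without the fifth restricted female of 16 months 1 in each. The 1 member past the study's criteria between 24 and 16 months became 0 to 2 on leaving out single mice. The 3 members with the smallest p in each comparison kept their sign under every alternative on gene means. Of all 392 differences of members 184 changed sign in at least 1, all of them at most 1.4 standard errors from 0 as reported. Among those printed, between 33-44 and 17-21 days, Msh6 ran from -0.00917 to 0.0417, Xrcc6 from -0.0878 to 0.0958, Rpa3 from -0.0983 to 0.0417 and Pole2 from -0.107 to 0.388. Between 24 and 6 months in ad libitum mice Terf2 ran from -0.065 to 0.0633, Parp1 from -0.0522 to 0.0578 and Brca1 from -0.481 to 0.156. In restricted against ad libitum mice Rpa3 ran from -0.0055 to 0.0895 at 6 months, and Mlh3 from -0.247 to 0.0235 at 16 months. The cause was not tested.

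No paired analysis by replicate number was possible because those numbers follow the order of deposit. Mice were matched by sex and array set instead, and the array set was fitted as a block. The scale allows no fold changes. For ad libitum ageing, 24 against 6 months, 95% intervals of members had a median half-width of 0.156 Z units, and Brca1 had the widest at 1.02.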
